A study of Mus musculus with 12 samples.

Results

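The 10 genes described here encode core cardiac transcription factors: the homeobox factor Nkx2-5, the zinc finger factors Gata4, Gata5 and Gata6, the T-box factors Tbx5 and Tbx20, the MADS-box factor Mef2c, the basic helix-loop-helix factors Hand1 and Hand2, and the LIM homeobox factor Isl1. They were taken by symbol from a deposited expression table of 23427 genes, in which each of the 10 symbols had exactly 1 entry. The RNA came from cultures of cardiomyocytes grown out of CM7/1, a mouse embryonic stem cell line. In the Hey1 line doxycycline switches on Hey1, and in the Hey2 line Hey2; both encode transcriptional repressors that act downstream of Notch. There were 4 libraries, 1 per group: each line without the drug, labelled as control, and after 48 h in 1000 ng/ml of it. The sources used here do not say whether a line is 1 clone or how many cultures made up a library. No RNA sample of drug-treated cells lacking an inducible Hey gene was analysed here, so drug and induced gene cannot be told apart. The 8 chromatin immunoprecipitation samples of the series were not analysed here.

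These factors act as a network. Gata4, Nkx2-5 and Tbx5 bind DNA together at many heart genes and each promotes expression of the others, while Hand and Mef2c proteins cooperate with them. Isl1 marks progenitors of the second heart field and is shut down as they become beating muscle. None of the 10 is restricted to heart: Gata4 and Gata6 also act in endoderm, Hand1 in trophoblast and extraembryonic mesoderm, and Isl1 and Hand2 in neurons.

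Levels are in RPKM, which divides reads by gene length and library depth, so they can be set side by side between genes. Genes with a value had 3151196, 3142314, 2296145 and 4182141 reads per library, in the order uninduced and induced Hey1 line, then uninduced and induced Hey2 line. Hey1 stood at 0.735 and 8.59 RPKM in uninduced and induced Hey1-line cells, and Hey2 was blank in uninduced and at 6.59 RPKM in induced Hey2-line cells. Each gene was thus higher where it had been switched on. The label cardiomyocyte was checked with 15 marker genes such as Actc1 and Tnnt2. All 15 were listed in every library, and their summed level was 24197 and 24832 RPKM in the Hey1 line against 1304 and 1357 RPKM in the Hey2 line. Of all 23427 genes in the table, 12311 and 12198 were listed in uninduced and induced Hey1-line cells, and 14177 and 15095 in Hey2-line cells. Of 11 pluripotency markers in the table, 9 were listed in each Hey1-line library and 11 in each Hey2-line library. Their summed levels were 37.3 and 29.2 RPKM against 325 and 330.3 RPKM. The Hey2-line libraries thus held less of the cardiomyocyte transcripts and more of the stem cell ones. In bulk RNA, fewer cells of a type and less RNA per cell cannot be told apart. With no second library in any group there is no spread between cultures to set a difference against, and no test of the conditions was made. All intervals are 95% intervals of counting error only, and copies made by PCR are not independent molecules. They rest on whole read numbers recovered from the steps of the values.

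Nkx2-5, an early marker of heart muscle cells, had a level of 52.6 RPKM (48.4 to 57.0) in the Hey1 line without the drug and of 52.8 RPKM (48.7 to 57.2) with it. In the Hey2 line it stood at 2.97 RPKM (1.94 to 4.35) without and 3.60 RPKM (2.73 to 4.67) with induction, from 26 and 57 reads. Both Hey1-line libraries were far above both Hey2-line libraries, and the pair within each line overlapped in its intervals. Of the genes listed in the uninduced Hey1-line library, 96.2% lay below Nkx2-5, against 38.1% in the uninduced Hey2-line library.

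Gata4, a zinc finger activator of heart genes, stood at 49.2 and 50.4 RPKM in uninduced and induced Hey1-line cells and at 9.12 and 9.69 RPKM in the Hey2 line. Gata6, its close relative, stood at 27.4 and 28.8 RPKM in the Hey1 line and at 8.28 and 7.27 RPKM in the Hey2 line. Both genes were lower in the Hey2 line, but Gata6 by less, so that the ratio of Gata4 to Gata6 was 1.79 (1.63 to 1.98) and 1.75 (1.60 to 1.92) in the Hey1 line and 1.10 (0.883 to 1.38) and 1.33 (1.13 to 1.58) in the Hey2 line. Gata5, which acts in endocardium and early heart, was the lowest of the 10 in the Hey1 line, at 0.900 RPKM (0.564 to 1.36) from 22 reads and 0.646 RPKM (0.369 to 1.05) from 16 reads. It was blank in both Hey2-line libraries, which means fewer than 5 reads there, or under 0.263 RPKM without and 0.146 RPKM with induction.

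Tbx20, a T-box factor needed in the growing heart and its chambers, had the highest level of the 10 in the Hey1 line, at 83.8 RPKM (81.3 to 86.3) uninduced and 71.4 RPKM (69.2 to 73.8) induced. In the Hey2 line it stood at 5.26 RPKM (4.58 to 6.02) and 6.37 RPKM (5.80 to 6.98). It was the member with most reads, 4325 and 3737 in the Hey1 line against 211 and 461 in the Hey2 line. Its interval was therefore the narrowest relative to the level. Tbx5, the T-box factor of the first heart field and atria, reached 16.9 and 18.4 RPKM in Hey1-line cells but only 2.16 and 2.32 RPKM in Hey2-line cells. The ratio of Tbx20 to Tbx5 was 4.96 (4.52 to 5.45) in uninduced Hey1-line cells and 2.43 (1.78 to 3.39) in uninduced Hey2-line cells.

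Hand2, a helix-loop-helix factor best known from the right ventricle, stood at 36.5 and 38.9 RPKM in the Hey1 line and at 5.29 and 6.30 RPKM in the Hey2 line. Hand1, its counterpart in the left ventricle, stood at 10.3 RPKM (8.02 to 12.9) and 13.2 RPKM (10.7 to 16.2) in the Hey1 line, and at 3.30 RPKM (1.96 to 5.21) and 4.98 RPKM (3.68 to 6.58) in the Hey2 line. Hand2 was above Hand1 in the Hey1 line, by a ratio of 3.56 (2.78 to 4.61) uninduced and 2.95 (2.37 to 3.70) induced. In the Hey2 line the ratios of 1.60 (0.943 to 2.87) and 1.27 (0.910 to 1.79) lay within counting error of 1. Strand handling is not given, so reads of the antisense gene Hand2os1 cannot be told apart from those of Hand2.

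Mef2c, a partner of the Gata, Hand and T-box factors in muscle, was low throughout, at 3.07 and 2.70 RPKM in the Hey1 line against 0.665 and 0.549 RPKM in the Hey2 line. Isl1 stood at 1.50 RPKM (0.995 to 2.16) and 1.00 RPKM (0.604 to 1.57) in the Hey1 line, from 28 and 19 reads. It was blank in uninduced Hey2-line cells, where 5 reads equal 0.344 RPKM, and stood at 0.229 RPKM (0.0840 to 0.498) from 6 reads after induction. Both genes were lower in the Hey2 line, and Isl1 was close to the limit of listing there.

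**Figure D1:**
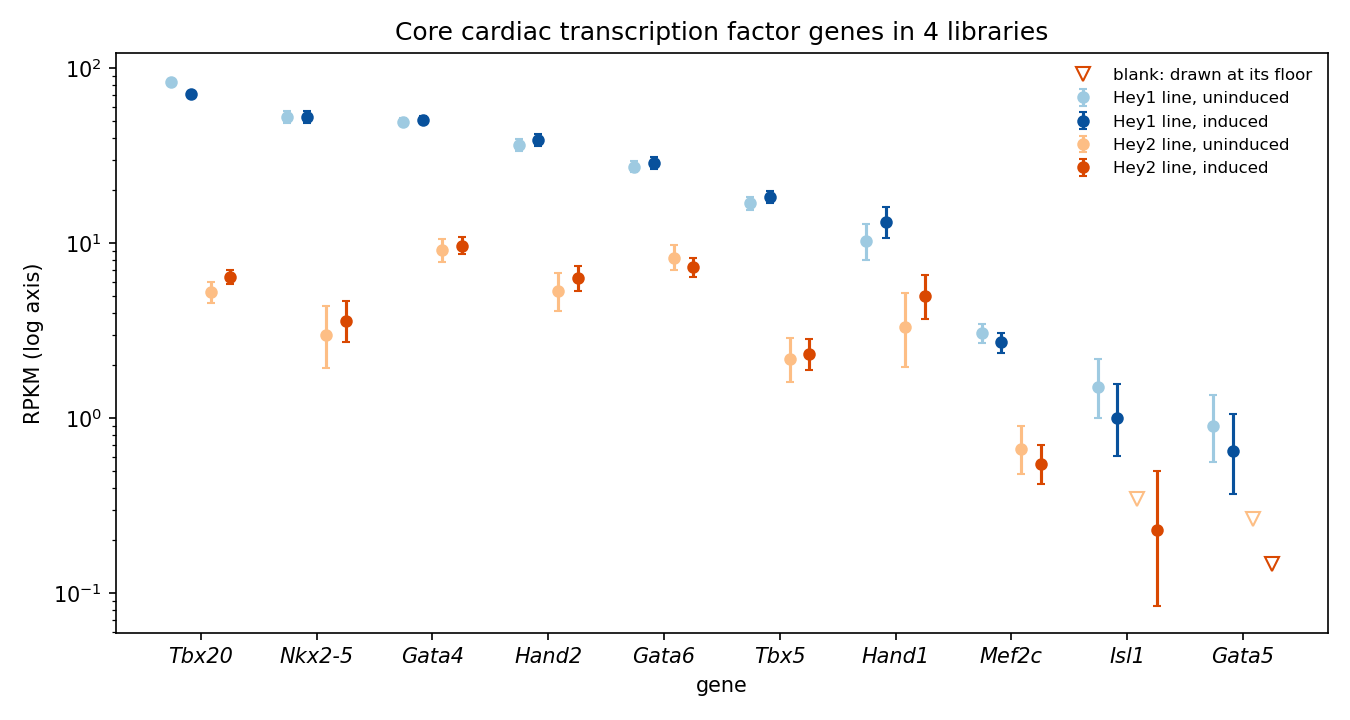
RPKM (log axis) of the 10 genes in each of the 4 libraries, with 95% Poisson intervals of counting error; open triangles mark blank cells at the value that 5 reads would give. Every gene lies higher in the 2 Hey1-line libraries (blue) than in the Hey2-line libraries (orange), from Tbx20 at 83.8 and 71.4 against 5.26 and 6.37 RPKM down to Gata5, which is blank in the Hey2 line.

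The order of the levels differed between the lines. In both Hey1-line libraries it ran Tbx20, Nkx2-5, Gata4, Hand2, Gata6, Tbx5, Hand1, Mef2c, Isl1, Gata5. Among neighbours in that order, Nkx2-5 and Gata4 (ratios 1.07 and 1.05) and Isl1 and Gata5 (ratios 1.66 and 1.55) did not differ beyond counting error, and the other neighbours did. In uninduced Hey2-line cells the order was Gata4, Gata6, Hand2, Tbx20, Hand1, Nkx2-5, Tbx5, Mef2c. There only Gata6 against Hand2 and Tbx5 against Mef2c differed beyond counting error. The induced Hey2-line library placed Tbx20 before Hand2 and otherwise had the same order, with Isl1 last.

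Nkx2-5 and Gata4 were nearly level in the Hey1 line, but the ratio of Nkx2-5 to Gata4 was 0.325 (0.207 to 0.493) in uninduced and 0.372 (0.276 to 0.494) in induced Hey2-line cells. As shares of the summed level of the 10 genes, which was 282 and 278 RPKM in the Hey1 line against 37.0 and 41.3 RPKM in the Hey2 line, Tbx20 went from 29.7% in uninduced Hey1-line cells to 14.2% in uninduced Hey2-line cells. Nkx2-5 held 18.6% and 8.01% in the same libraries. The shares of Gata4 (17.4% and 24.6%), Gata6 (9.72% and 22.3%) and Hand1 (3.63% and 8.90%) were larger in the Hey2 line, while those of Hand2 (12.9% and 14.3%) and Tbx5 (5.99% and 5.84%) were alike.

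**Figure D2:**
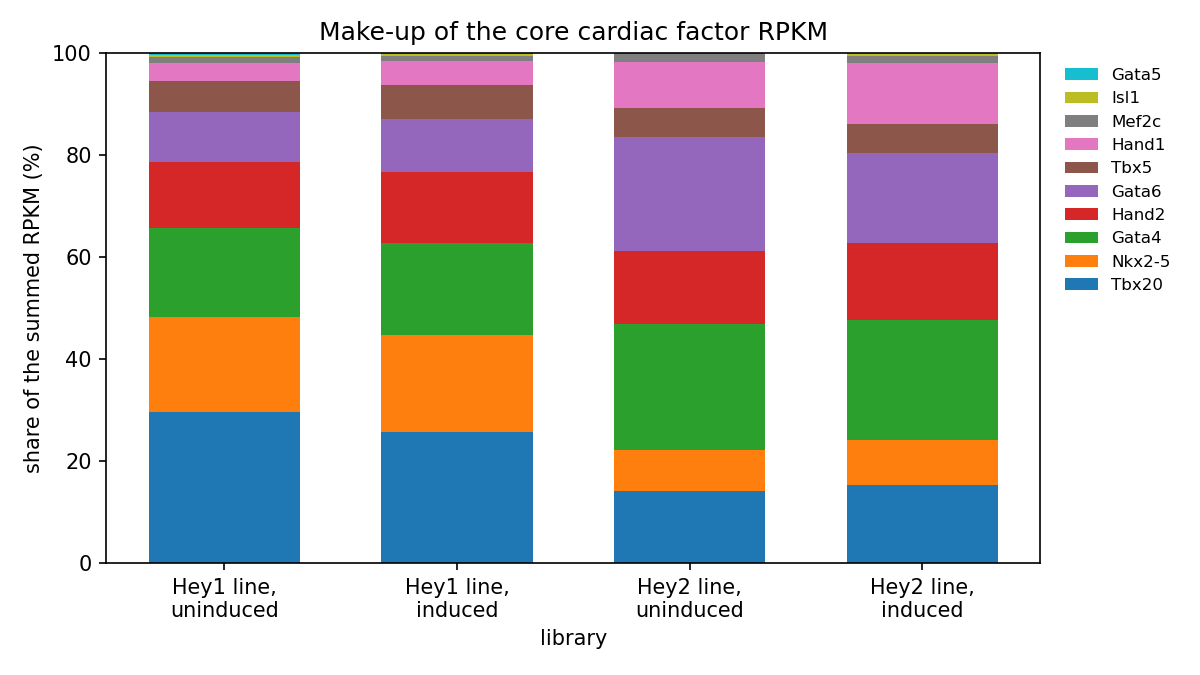
Share (%) of the summed RPKM of the 10 genes held by each gene, by library. Tbx20 and Nkx2-5 take the largest shares in the Hey1 line (29.7% and 18.6% uninduced), and Gata4 and Gata6 in the Hey2 line (24.6% and 22.3% uninduced).

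Between uninduced and induced Hey1-line cells the ratios of the 10 genes ran from 1.49-fold lower (Isl1) to 1.29-fold higher (Hand1). For 8 of them every comparison gave a difference, as each was listed in the 4 libraries and averaged 1 RPKM or more. Gata5 and Isl1 are given by their own values. None of the 8 differed by 2-fold on the log2(RPKM + 1) scale, where 0.136% of 10991 genes compared in the same way did. That background held 3 genes higher and 12 lower, or 4 and 6 after median ratio scaling of the libraries. On the same scale 6 of the 8 were higher and 2 lower, with a median difference of 0.050 against −0.061 over all compared genes. That second median is negative, so most compared genes were lower on the deposited RPKM. After median ratio scaling it was 0.011. None of the 6 higher members differed beyond counting error on the deposited RPKM.

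Tbx20 was 1.17-fold lower after Hey1 induction (1.12 to 1.23), and on the deposited RPKM its interval was the 1 among the 8 that left out 1. Of all compared genes, 13.5% had an interval below 1 in this comparison and 4.88% above 1. This count depended on the scaling: after median ratio scaling Tbx20 stayed below 1 and Gata4, Gata6, Tbx5 and Hand2 lay above it, where 10.1% of all compared genes lay above 1 and 7.67% below. After upper quartile scaling Tbx5 lay above 1 and Tbx20 below. Nkx2-5 differed by a ratio of 1.00 (0.896 to 1.13), Gata4 by 1.02 (0.946 to 1.11) and Gata6 by 1.05 (0.941 to 1.17), so on the deposited RPKM the intervals of these 3 genes lay within 0.896 and 1.17. Hand1 had the largest ratio, 1.29-fold higher (0.938 to 1.78), within counting error. Mef2c was 1.13-fold lower (0.944 to 1.36), Gata5 1.39-fold lower (0.699 to 2.84) and Isl1 1.49-fold lower (0.805 to 2.83), each within counting error; with 16 to 28 reads, a change of Gata5 or Isl1 inside its interval was not detectable.

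Induction of Hey2 was compared in the same way in the Hey2 line. Of the same 8 genes, none differed by 2-fold on the log2(RPKM + 1) scale, against 0.0455% of all compared genes, and 6 were higher and 2 lower. Their median difference was 0.15, against −0.0024 over all compared genes. That second median is slightly negative, so slightly more of all compared genes were lower than higher. Of the 6 higher members only Tbx20 differed beyond counting error. Tbx20 was 1.21-fold higher (1.03 to 1.43), the 1 interval among the 8 that left out 1 under each scaling, where 8.04% of all compared genes had an interval above 1 and 6.63% below. Hand1 was 1.51-fold higher (0.863 to 2.75), from 18 and 49 reads, within counting error. On the log2(RPKM + 1) scale its difference was higher than that of 97.1% of compared genes in the Hey1 line and of 98.5% in the Hey2 line, with 18 to 94 reads behind each of its values.

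Nkx2-5 was 1.22-fold higher (0.752 to 2.01) and Hand2 1.19-fold higher (0.886 to 1.61) after Hey2 induction, both within counting error. Gata4 (1.06-fold higher, 0.883 to 1.28) and Tbx5 (1.07-fold higher, 0.753 to 1.55) differed least. Gata6 was 1.14-fold lower, within counting error, and Mef2c 1.21-fold lower (0.804 to 1.81). Isl1, with 6 reads after induction and fewer than 5 before, allowed no fold, and Gata5 was blank in both libraries.

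**Figure D3:**
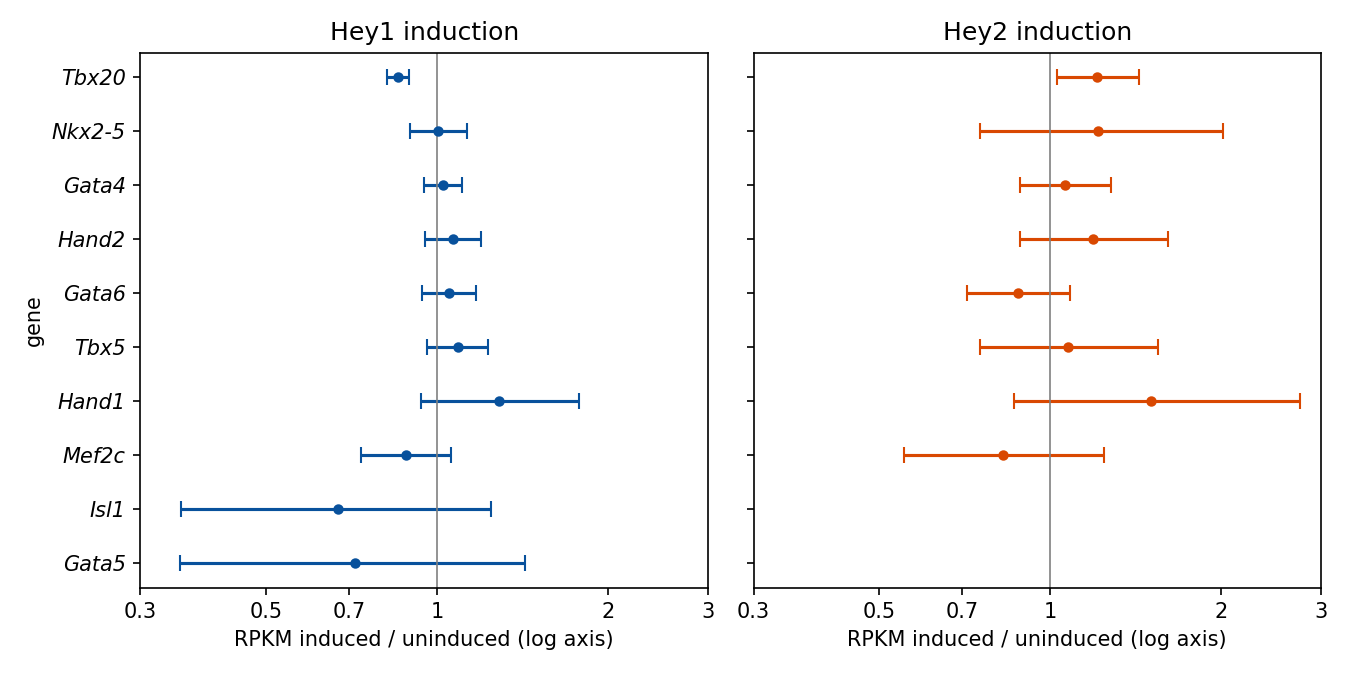
Ratio of RPKM, induced to uninduced (log axis), for each gene in the Hey1 line (left) and the Hey2 line (right), with exact 95% intervals of counting error; the line marks a ratio of 1, and Gata5 and Isl1 have no ratio in the Hey2 line. On the deposited RPKM only the intervals of Tbx20 leave out 1, and after median ratio scaling those of Gata4, Gata6, Tbx5 and Hand2 would also lie above 1 in the Hey1 line. The interval of Tbx20 is below 1 in the Hey1 line (1.17-fold lower) and above 1 in the Hey2 line (1.21-fold higher).

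The difference between the lines was far larger than either induction. Without induction, all 8 compared genes passed 2-fold, lower in the Hey2 line, on the log2(RPKM + 1) scale, where 13.1% of compared genes were lower and 19.7% higher by that size. With induction the 8 were again lower by that size, against a background of 12.3% lower and 22.8% higher. Mef2c reached the required mean through the Hey1 line only, so it had to be lower in the Hey2 line; the other 7 lay above 1 RPKM in each library. The median difference of the 8 was −2.41 without and −2.36 with induction, while that over all compared genes was 0.20 and 0.27. Median ratio scaling moved the median of all genes by −0.18 without and −0.25 with induction. Counted at 2-fold on the log2(RPKM + 1) scale, higher and lower compared genes went from 2167 and 1439 to 1631 and 1766 without induction. With induction these 2-fold counts went from 2509 and 1357 to 1751 and 1878.

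The genes fell into a range of sizes. Nkx2-5 was 17.7-fold lower in uninduced Hey2-line than Hey1-line cells (12.0 to 27.4) and Tbx20 15.9-fold lower (13.9 to 18.4). Tbx5 was 7.82-fold lower (5.82 to 10.7), Hand2 6.89-fold lower (5.36 to 8.99) and Gata4 5.39-fold lower (4.60 to 6.34). Smaller ratios were those of Mef2c at 4.61-fold (3.33 to 6.52), Gata6 at 3.31-fold (2.77 to 3.98) and Hand1 at 3.11-fold lower (1.83 to 5.54). The intervals of Nkx2-5 and Tbx20 overlapped neither that of Tbx5 nor those of the genes with smaller ratios.

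Between the induced libraries the ratios were 14.7 for Nkx2-5 (11.2 to 19.6), 11.2 for Tbx20 (10.2 to 12.4), 7.91 for Tbx5 (6.35 to 9.94), 6.18 for Hand2 (5.16 to 7.44) and 5.20 for Gata4 (4.61 to 5.88). Mef2c was 4.93-fold lower (3.72 to 6.61), Gata6 3.95-fold (3.41 to 4.60) and Hand1 2.65-fold (1.86 to 3.83). These 2 libraries are separate from the uninduced pair but come from the same 2 lines. The order of the 8 ratios was the same in both pairs, though several neighbours in it had overlapping intervals. Gata5 was at least 3.42-fold lower without and 4.43-fold lower with induction, computed against 5 reads in the Hey2-line library. Isl1 was at least 4.35-fold lower without induction on the same footing, and 4.38-fold lower with it (1.68 to 13.4).

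The cardiomyocyte markers moved with these differences. All 15 markers passed 2-fold, downwards, on the log2(RPKM + 1) scale in both pairs of libraries, with a median of −3.74 without and −3.82 with induction. Of all compared genes, 13.1% were lower by that size without and 12.3% with induction. As plain ratios of RPKM they were 5.40-fold (Nppa, an atrial peptide hormone) to 35.9-fold lower (Myl4, a myosin light chain) without induction, with a median of 13.7. The ratios of Nkx2-5 and Tbx20 lay above that median and those of the other 6 compared genes below it, and Hand1, Gata6, Mef2c and Gata4 lay under the lowest marker. In the induced pair, with a marker median of 14.5, only Nkx2-5 of the 8 lay above the median, and Hand1 and Gata6 lay under the lowest marker, again Nppa. How far the share of cardiomyocytes accounts for the members' differences was not tested.

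Markers of other cell types that use some of these factors were also listed more often in the Hey2 line, where values start at 5 reads and not at 10 as in the Hey1 line. Of 16 endoderm markers, 4 and 5 were listed in uninduced and induced Hey1-line cells, and 13 and 15 in Hey2-line cells. Sox17, an endoderm factor, was blank in the Hey1 line and stood at 3.28 and 3.73 RPKM in the Hey2 line, and Dab2, an endocytic adaptor, was 8.64-fold higher there without induction (6.56 to 11.6). The summed endoderm level was nevertheless 63.8 and 47.2 RPKM in the Hey1 line against 40.8 and 38.5 RPKM in the Hey2 line, while Afp, alpha-fetoprotein, stood at 58.5 and 42.0 RPKM in the Hey1 line against 1.42 and 0.970 RPKM in the Hey2 line. Of 9 trophoblast and extraembryonic mesoderm markers in the table, 2 were listed in each Hey1-line library and 4 and 5 in the Hey2 line. Their summed levels were 15.6 to 16.1 and 18.4 to 22.8 RPKM. The Hey1-line sums were Ahnak and Bmp4 alone. Both were lower in uninduced Hey2-line cells, and in induced ones Ahnak was lower and Bmp4 higher. Krt7 (2.30 and 5.65 RPKM) and Eomes (5.86 and 2.97 RPKM), also a streak marker here, were listed only in the Hey2 line. Cdx2, Elf5, Prl3d1 and Tpbpa were blank in all 4 libraries. Of 13 neural and neural crest markers, 5 and 4 were listed in the Hey1 line and 8 in each Hey2-line library, at sums of 26.2 to 26.3 and 57.2 to 58.8 RPKM, and Mnx1, Neurog2 and Th were among those blank throughout. Of the neural sums, Stmn2 made up 1.42 and 1.05 RPKM in the Hey1 line against 32.8 and 33.8 RPKM in the Hey2 line, while Tubb3 was lower there, at 16.5 and 18.7 against 4.14 and 4.14 RPKM. Whether such cells supply part of the Gata4, Gata6, Hand1, Hand2 or Isl1 reads was not tested.

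Other regulators of the heart showed the same direction less uniformly. Of 20 listed cofactors and partners, 19 were compared, and 15 were lower and 4 higher in uninduced Hey2-line cells, with a median of −0.60. By 2-fold on the log2(RPKM + 1) scale 6 were lower and 1 higher, against 13.1% lower and 19.7% higher of all compared genes. Lower were Smyd1, a muscle histone methyltransferase (14.9-fold, 12.5 to 17.9), Smarcd3, the cardiac subunit of the SWI/SNF complex (9.40-fold, 6.80 to 13.3), Hopx (6.60-fold), Ankrd1 (6.35-fold), Myocd, the Srf coactivator (6.09-fold), and Zfpm1, a partner of Gata factors (3.86-fold). Zfpm2, the Gata4 partner known as FOG-2, was 1.73-fold lower (1.33 to 2.27). The gene listed under the symbol Tcf3 was the higher one, at 2.50-fold (1.35 to 4.78). That symbol has been used for more than 1 gene, so the entry may not be the partner of Hand proteins.

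Among 28 other cardiac transcription factor genes in the table, 12 could be compared, 10 of them lower and 2 higher without induction, with a median of −1.24. Casz1 (8.34-fold, 6.43 to 11.0), Tbx2 (6.14-fold), the Iroquois genes Irx4 (5.15-fold), Irx5 (4.91-fold) and Irx3 (2.75-fold), Prox1 (4.86-fold) and Meis1 (3.48-fold) were lower by 2-fold on the log2(RPKM + 1) scale. Of all compared genes, 13.1% were lower by that size. Foxh1, a Smad partner in early mesoderm and endoderm, had the highest mean of its listed values in that list, blank and at 1.17 RPKM in the Hey1 line and at 15.0 and 12.8 RPKM in the Hey2 line. In the inductions no gene of either list passed 2-fold on that scale. Over all compared genes the medians were −0.061 after Hey1 and −0.0024 after Hey2 induction. The cofactors and partners were 14 higher and 5 lower after each induction (medians 0.097 and 0.094). The other cardiac factors were 10 higher and 2 lower after Hey1 induction (median 0.13), and 4 higher and 8 lower after Hey2 induction (median −0.051).

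Genes that the core factors are known to activate were lower too. Of 22 cardiac target genes 21 were compared, and 17 were lower by 2-fold on the log2(RPKM + 1) scale in each pair of libraries. Of all compared genes, 13.1% were lower by that size without and 12.3% with induction. The median of the 21 was −3.17 without and −2.96 with induction. On that scale Tnnc1, cardiac troponin C, differed most, at 31.5-fold lower without induction as a ratio of RPKM (27.3 to 36.4). As such a ratio Hcn4, a pacemaker channel gene, was lower still, 45.5-fold (27.4 to 81.6). Actc1, cardiac actin, had the highest level, at 5041 and 5040.2 RPKM in the Hey1 line against 225 and 217 RPKM in the Hey2 line. The 2 higher genes in the Hey2 line were Kcnj3, a potassium channel gene, at 2.21-fold (1.56 to 3.16), and Fgf10, a growth factor gene, at 2.82-fold (1.82 to 4.47). This list shares genes such as Actc1 and Myh6 with the cardiomyocyte markers. In the Hey1 and Hey2 inductions none of the 21 passed 2-fold. Their medians were −0.047 and 0.062, against −0.061 and −0.0024 over all compared genes.

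**Figure D4:**
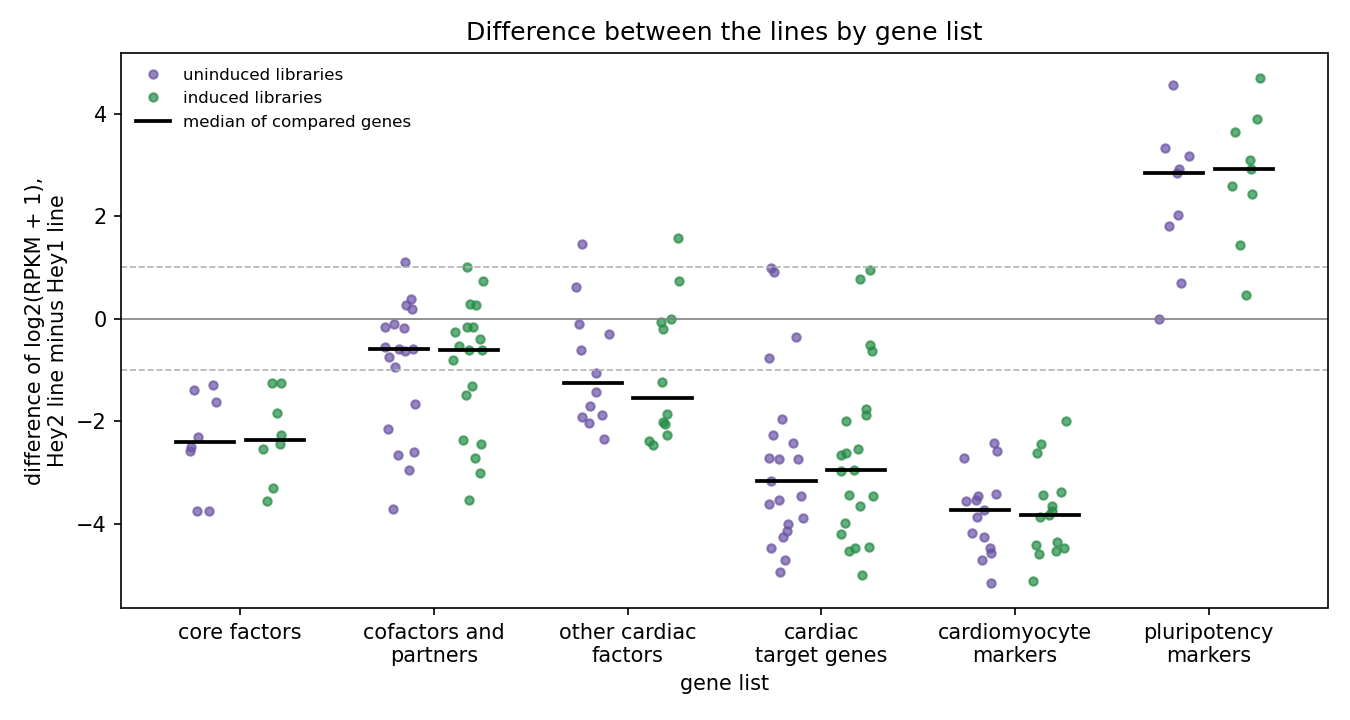
Difference of log2(RPKM + 1), Hey2 line minus Hey1 line, for each compared gene of 6 lists, between the uninduced libraries (purple) and between the induced libraries (green); black bars are medians and dashed lines mark 2-fold on this scale. The 8 core factor genes lie between −3.76 and −1.25 with medians of −2.41 and −2.36, the cardiomyocyte markers lower (−3.74 and −3.82), and the pluripotency markers have medians of 2.85 and 2.92.

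The members' patterns over the 4 libraries were compared as the root mean square difference of log2(RPKM + 1) after each gene was centred on its own mean. Among the 8, Tbx5 and Hand2 were most alike (0.051), followed by Nkx2-5 and Tbx20 (0.10), and Nkx2-5 and Mef2c least (1.20). Among 10983 other compared genes the closest to Nkx2-5 was Smyd1 (0.014), at 103 and 105 RPKM in the Hey1 line against 6.88 and 8.12 RPKM in the Hey2 line. The closest to Tbx20 was Cav3, a muscle caveolin (0.076). Within 0.1 lay 3 genes for Tbx20, 5 for Nkx2-5, and from 16 (Hand1) to 182 (Mef2c) for the other members compared. For members with many such genes the closest one stands out little. Gata4 was closest to Ndufb9 (0.0090), Gata6 to Afap1l1 (0.024), Tbx5 to Mdga1 (0.035), Mef2c to Tmub1 (0.019), Hand1 to Npnt (0.055) and Hand2 to Svil (0.017). With 4 libraries, and most of the pattern set by the difference between lines, such likeness is a description only. The added 1 RPKM shrinks the differences of low genes on this scale. Mdga1 stood at 7.43 and 8.53 RPKM in the Hey1 line against 0.460 and 0.548 RPKM in the Hey2 line, a larger fold than that of Tbx5. With no pseudocount, Nkx2-5 was at −4.15 and −3.87 between lines, Mef2c at −2.20 and −2.30 and Hand1 at −1.64 and −1.41. Hand1 was then further from Nkx2-5 than Mef2c was.

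Because the members were lower together in the Hey2 line, the bases before their starts were examined. The RefSeq promoter table of GRCm38.p6 matched 6 of the 10 genes, with 8 windows in all, 3 of them for Mef2c. Gata4, Gata6, Tbx5 and Hand1 had no entry. The 250 bases before the start are given for the 2 genes with the largest difference between lines, Nkx2-5 and Tbx20, and for 2 genes whose windows held a motif, Hand2 and Gata5. Capitals mark motif matches on either strand.
Nkx2-5 (chr17:26841566-26841815, minus strand): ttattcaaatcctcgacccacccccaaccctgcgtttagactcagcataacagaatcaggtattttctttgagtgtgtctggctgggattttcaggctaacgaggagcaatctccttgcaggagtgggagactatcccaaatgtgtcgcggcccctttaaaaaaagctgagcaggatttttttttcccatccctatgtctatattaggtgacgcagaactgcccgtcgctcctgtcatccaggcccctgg
Tbx20 (chr9:24774304-24774553, minus strand): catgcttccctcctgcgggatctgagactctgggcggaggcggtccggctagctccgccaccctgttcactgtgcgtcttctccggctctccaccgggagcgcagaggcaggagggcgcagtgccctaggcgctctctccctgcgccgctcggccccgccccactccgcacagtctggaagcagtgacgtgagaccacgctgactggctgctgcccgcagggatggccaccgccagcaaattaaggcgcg
Hand2 (chr8:57320733-57320982, plus strand): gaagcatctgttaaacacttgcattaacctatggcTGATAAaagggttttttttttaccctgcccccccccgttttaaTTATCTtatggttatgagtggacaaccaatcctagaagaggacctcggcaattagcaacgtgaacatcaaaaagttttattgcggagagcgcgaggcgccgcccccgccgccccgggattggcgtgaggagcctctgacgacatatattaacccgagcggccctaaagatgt
Gata5 (chr2:180334680-180334929, minus strand): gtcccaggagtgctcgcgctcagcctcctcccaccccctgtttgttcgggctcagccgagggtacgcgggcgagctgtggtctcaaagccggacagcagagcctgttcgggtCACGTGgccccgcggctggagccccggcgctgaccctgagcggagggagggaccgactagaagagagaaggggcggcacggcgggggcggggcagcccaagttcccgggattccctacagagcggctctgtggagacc

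The motifs searched, with both strands and without regard to overlap, were CACGTG, the E-box that Hey proteins can bind; the related CACGCG; for Gata factors, GATA with A or T before it and A or G after it; TNAAGTG for Nkx2-5; GGTGTGA for T-box factors; and, for Mef2, CTA and TAG with 4 bases of any kind between them. CACGTG was found in the Gata5 window alone, starting 138 bases before the start, and in 6.02% of all 32851 windows of the same length. A Gata motif was found 215 and 172 bases before the start of Hand2 and 115 bases before that of Isl1, where 26.5% of all windows hold at least 1. None of the 8 windows held CACGCG (7.62% of all), TNAAGTG (10.1%), GGTGTGA (3.33%) or the Mef2 motif (3.20%). Nkx2-5 and Tbx20, with the largest differences between lines, had no match to any motif in these 250 bases, and the windows were 49.2% and 68.8% G and C, against a median of 52.4% over all windows. A match or its absence in this window is a description of the letters and says nothing of binding.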

How the data were processed

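RNA-seq values of 4 libraries were used. The authors deposited RPKM in a table with 1 column per library, per the file headers, and signed folds, a score by the authors that was not used. The build mm9 and the tools Bowtie 1.0, DESeq and MACS 1.4.1 are named without a role, per the submitters' processing notes. The sources used here name no annotation, read counter, strand setting or rule for multiply matching reads, so genes with close copies or overlapping genes are uncertain.

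Each library's divisor was found as the number of reads that makes RPKM times length whole for genes of known short span: 7.4 M and 7.5 M reads (Hey1 line), 5.75 M and 10.375 M reads (Hey2 line). Of 15371 listed genes, 15363 (99.9%) then gave whole reads in every library at a whole-base length of up to 25000 bases, with a deviation of at most 3e-06 reads, relaxed in proportion for the most abundant genes. With 1 divisor wrong by 1%, 9.7% of 1000 genes did. The read numbers are the smallest that the values allow, except for 634 genes whose length and reads were raised to a multiple to reach the listing start below; true ones could be a multiple, with narrower intervals. Listed values start at 10 reads (Hey1 line) and 5 reads (Hey2 line), and a blank cell was taken as fewer.

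Differences are of log2(RPKM + 1), which understates changes of low genes. Folds are ratios of RPKM with exact conditional binomial intervals, and levels have exact Poisson intervals. Genes with 4 values and a mean of at least 1 RPKM were compared. Of 13 gene lists, those for smooth muscle, endothelial and fibroblast cells and for mesoderm are described in the closing section with the paralogues. All 10 members are named; from the lists, the gene with the highest mean, those that differed most or by 2-fold, and for each member its most alike gene, with some further examples chosen after their values were seen. The members and lists were chosen with earlier results of these data known, and motifs and printed windows after values were seen. Interval and recovery code was tested on simulated data. Python 3.11.15, NumPy 2.4.6, pandas 2.3.3, SciPy 1.17.1 and Matplotlib 3.10.9 were used. Some genes of the lists are not reported here by name.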

Additional observations from a re-analysis of the deposited data

Results flagged for a closer look

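The differences of Tbx20 and Gata6 had opposite signs in the 2 inductions. On the log2(RPKM + 1) scale Tbx20 was at −0.23 after Hey1 induction and 0.24 after Hey2 induction. Gata6 was at 0.067 and −0.17, and on the deposited RPKM both of its ratios lay within counting error of 1. Each direction rests on 1 pair of libraries, and the difference between the inductions was not tested. For Tbx20 the ratio of the 2 ratios was 1.42, at a counting standard error of 0.12 on the log2 scale, and for Gata6 it was 0.838, at 0.17.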

How the results depend on the processing

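Each count and median was recomputed under 7 alternatives: pseudocounts of 0.1 RPKM and of none, no filter on the mean, a mean of at least 5 RPKM, median ratio and upper quartile scaling, and blank cells read as 0. No member passed 2-fold in either induction under any of them, and 8 did between lines in both pairs, or 7 of 7 at a mean of at least 5 RPKM, which left out Mef2c. The median difference between the induced libraries was −2.65 under median ratio and −2.59 under upper quartile scaling. As an alternative chosen after seeing the data, both scalings were applied to the counting intervals: after Hey1 induction 5 members left out 1 under median ratio and 2 under upper quartile scaling, against 1 as deposited, and the counts of 1 (Hey2 induction) and 8 (between lines) did not change. No difference of a single member changed sign. Of 220 such values 19 moved by more than counting error, among them Mef2c between lines, at −2.20 without and −2.30 with induction when no pseudocount was added, and Tbx20 after Hey1 induction, at −0.14 under median ratio scaling. Depth limits Isl1, Gata5 and, in the Hey2 line, Hand1 and Nkx2-5. No paired analysis was possible because each group has 1 library and the labels carry no replicate numbers.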

Other observations

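Of 17 paralogues of the core factors in the table, 8 were blank in all 4 libraries, among them Gata1 and Isl2, and 4 were compared. Mef2a had the highest mean, at 33.9 and 29.5 RPKM in the Hey1 line and 8.73 and 8.93 RPKM in the Hey2 line, and Mef2d stood at 23.5, 27.0, 10.9 and 12.1 RPKM, so both were above Mef2c in every library. Between the uninduced lines Mef2a was 3.89-fold lower in the Hey2 line (3.24 to 4.68), Mef2d 2.15-fold (1.79 to 2.61) and Mef2b 3.73-fold lower (1.39 to 12.5). Gata3 stood at 0.630 and 1.12 RPKM in the Hey1 line and 0.379 and 0.929 RPKM in the Hey2 line, and Gata2 stood at 0.322 and 0.357 RPKM in the Hey2 line. In the Hey1 line Gata2 was blank, where 10 reads equal 0.417 and 0.411 RPKM, so a difference between the lines was not detectable. Twist1, a relative of the Hand genes, stood at 2.40, 1.39, 1.39 and 2.07 RPKM.

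The remaining marker lists differed between the lines as follows, as summed RPKM in uninduced and induced Hey1-line and then Hey2-line cells. Smooth muscle markers, which heart muscle cells express in part, stood at 685, 744, 199 and 233 RPKM. Of these sums Des made up 360, 394, 44.1 and 44.9 RPKM, and Acta2 217, 253, 45.6 and 49.5 RPKM. Of 5 compared, 3 were lower and 2 higher in the Hey2 line in each pair of libraries. The 2 higher were Tagln (71.1, 60.7, 82.5 and 111 RPKM) and Smtn (12.8, 14.4, 16.0 and 15.4 RPKM). Fibroblast markers stood at 84.4, 80.4, 111 and 139 RPKM, and endothelial markers at 2.99, 2.92, 10.9 and 11.4 RPKM. Mesoderm and primitive streak markers stood at 5.43, 4.002, 56.5 and 39.6 RPKM, with 3 of 10 listed in each Hey1-line library and 10 of 10 in the Hey2 line. Of all 23427 genes, 12311, 12198, 14177 and 15095 were listed in the same order of libraries. Mixl1, which marks early mesendoderm, came out 2.72-fold lower after Hey2 induction (1.94 to 3.85), at −1.16 on the log2(RPKM + 1) scale, where 4 genes of all compared were lower by 2-fold. No explanation was tested for these values.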
